A study of Mus musculus with 49 samples.

Results

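Mouse livers taken 2 d after a toxic dose of acetaminophen were set against livers taken 1 h after the same dose, over the part of a whole-transcriptome array for which the untreated control arrays of the table used here hold no value. The array was the Affymetrix mouse genome array. Of its 45101 probe sets, 36964 had no value on any of the 5 control arrays. They include 64 control probe sets of the manufacturer, which were left out, which leaves 36900 probe sets. They stand for 15438 of the 18193 genes of the whole table, and 12217 of these genes have no probe set at all on the control arrays. The comparison used 10 of the 49 arrays, 5 at 1 h and 5 at 2 d. Arrays labelled 12 h, 1 d and 16 d, 5 of each, are cited for the course over time.

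All mice were male C57BL6/N animals. They went without food overnight, received 1 intraperitoneal injection of 300 mg/kg acetaminophen (APAP) in phosphate-buffered saline, and could then eat at will. Both groups had received the drug, so the 1 h arrays are no untreated baseline. The 1 h mice were killed shortly after the fast and the 2 d mice after renewed feeding. Time since the dose and feeding state therefore cannot be told apart in this comparison, and the age of the mice and the time of day are not given in the sources used here. Arrays of a group are numbered 1 to 5 in the titles, and nothing says whether each came from its own animal. Each p-value is therefore set against the array-to-array spread alone, some of which may be technical. Values are log2 intensities of whole-liver RNA, 1 per probe set and array, and a difference of 1 is a 2-fold change. For each gene the probe set with the highest mean is shown. A gene was called where limma's Benjamini-Hochberg adjusted p for the 2 d minus 1 h difference was under 0.05 over all 45037 probe sets fitted. Differences are given ± the standard error of that fit, and single values in the order of replicates 1 to 5. The text says that a gene rose or fell only where it was called. A difference printed without its standard error belongs to a list member that was named after its value was seen, to complete a short count, or to another processing named beside it. Apart from such members and a fixed panel, named genes were picked among called genes whose 1 h and 2 d arrays did not overlap. For these picks, separate groups are a condition of naming and no further result. Over all genes, 10.5% had every 2 d array above every 1 h array and 8.6% below. Such processing is named where it moved a value by over 1.5 times or ended a call. For calls lost in several of the other settings tried, their number and the range of the differences there are given. Averaged probe sets means that all probe sets of the gene described here were averaged before the test, and the brightest probe set of the table means that those with a value on the control arrays were also eligible.

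As background, hepatocytes around the central vein turn acetaminophen into a reactive quinone imine through their cytochrome P450 enzymes, and these cells die once glutathione is used up. The surviving hepatocytes then divide, monocytes enter and clear the dead tissue, and stellate and endothelial cells rebuild the damaged zone with a temporary matrix. Liver functions that depend on zonation, such as glutamine synthesis next to the central vein and urea synthesis near the portal vein, are carried by distinct hepatocyte populations.

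The arrays matched their label as liver. Alb, the gene of serum albumin, lay at 14.19 at 1 h and 14.30 at 2 d, and the mean of 11 hepatocyte genes was 12.96 to 13.05 on the 1 h arrays and 12.93 to 13.03 on the 2 d arrays. Replicate 3 at 1 h stood apart. The SD of its values was 1.916, against 2.059 to 2.154 on the other 9 arrays compared. Replicate 4 at 16 d had a similar SD of 1.914. The 3′ minus 5′ signal of Actb, a measure of RNA integrity in which a higher value means more loss of the 5′ end, was 0.52 to 0.73 at 1 h and 0.26 to 0.48 at 2 d, so the groups did not overlap. The same measure for Gapdh was -0.18 to 0.04 at 1 h and -0.21 to -0.16 at 2 d, and there the groups overlapped. The part of RNA integrity in the results below was not tested. Of 31 genes of organs foreign to liver, which mark the low end of the signal, 0 rose and 8 fell, with a median difference of -0.15. These falls were between 0.27 and 0.74 in size. Leaving out 1 array gave counts of 2 to 8, with 2 without 1 h replicate 3 or 2 d replicate 2, 3 without 2 d replicate 3 or 5, 4 without 1 h replicate 1 and 5 without 2 d replicate 1 or 4. With arrays centred on their medians the count was 1.

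In the comparison as a whole, 1978 genes were higher at 2 d than at 1 h, which is 12.8% of those tested, and 1903 were lower, which is 12.3%. The 2 directions differed in size. Among the higher genes 660 (4.28% of all tested) differed at least 2-fold, and among the lower genes 149 (0.965%). The median difference over all genes was -0.09. All 5 arrays at 2 d lay above all 5 at 1 h for 1621 genes (10.5%) and below them for 1328 (8.6%). Over single probe sets 3384 were higher (9.17%) and 4562 lower (12.4%). Without 1 h replicate 3, 1577 genes were higher and 1514 lower. The split between the directions depended on the scaling. With each array centred on its median, 2166 genes were higher and 1180 lower. Centring on the ribosomal protein genes, which were themselves higher at 2 d, gave 1195 higher and 8801 lower and moved the median difference over probe sets from -0.11 to -0.404. This centring takes 0.29 from the difference of every gene, so small differences move by over 1.5 times under it and counts of falls grow, from 6 to 53 for the respiratory genes below.

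**Figure D1:**
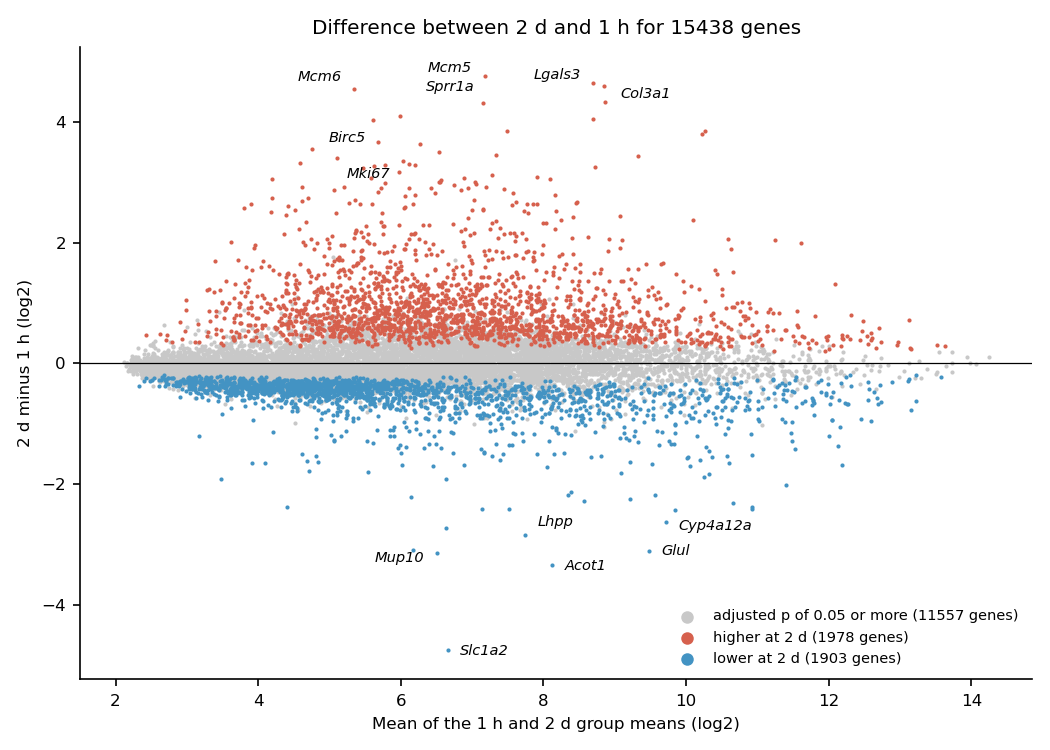
Difference between 2 d and 1 h (log2, vertical axis) against the mean level of each of the 15438 genes (log2, horizontal axis), with genes called higher and lower in colour and grey points not called. The 660 genes at least 2-fold higher outnumber the 149 at least 2-fold lower, and the named genes reach from Slc1a2, -4.76, to Mcm5, 4.77.

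Many genes of DNA replication and mitosis rose. Of the replication origin and fork genes measured, 28 of 40 rose, 20 of them at least 2-fold, and none fell. The median difference of the list was 1.03, against the -0.09 over all genes and a background of 12.8% higher. Mcm4, Mcm5 and Mcm6 encode subunits of the helicase that opens DNA at replication origins. Mcm6 read 2.82, 3.47, 2.60, 2.70 and 3.77 on the 1 h arrays and 8.16, 6.07, 7.80, 8.39 and 7.70 on the 2 d arrays, and rose by 4.55 ± 0.43 (adjusted p = 5.3e-08). Replicate 2 was the lowest of the 2 d arrays. Mcm4 rose by 4.11 ± 0.46 (adjusted p = 6.1e-07) and Mcm5 rose by 4.77 ± 0.44 (adjusted p = 3.44e-08). Mcm5 rests on a probe set whose name marks possible cross-hybridisation. On the remaining probe set its difference was 0.23, which was not called. Top2a, the topoisomerase that untangles replicated chromosomes, read 3.78, 4.12, 4.11, 4.53 and 4.86 at 1 h. At 2 d it read 7.65, 6.06, 7.02, 8.01 and 7.60 and rose by 2.99 ± 0.27 (adjusted p = 3.38e-08), again with replicate 2 lowest. A single member had a clearly lower mean. Mcm10, which helps to activate the helicase, differed by -1.05 ± 0.39 (adjusted p = 0.0548), from 9.38 ± 0.32 to 8.32 ± 0.72 (mean ± SD, n = 5). It was not called, and its 2 d arrays ran from 7.44 to 9.20 and overlapped those of 1 h. These are bulk RNA samples, in which fewer cells of a type and less RNA per cell cannot be told apart. With all probe sets of a gene averaged, the differences were 2.50 for Mcm5, 2.40 for Mcm6 and 0.96 for Top2a, and each was still called.

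Most measured genes of nucleotide synthesis rose with replication. Among 14 measured genes of nucleotide synthesis 8 rose. Rrm1 and Rrm2, the subunits of ribonucleotide reductase, rose by 2.31 ± 0.27 and by 2.93 ± 0.52 (adjusted p = 1.23e-06 and 0.000201). Dck, deoxycytidine kinase, rose by 2.96 ± 0.40 (adjusted p = 6.64e-06), and Dtymk, thymidylate kinase, rose by 1.45 ± 0.30 (adjusted p = 0.00105). Rrm2 read 9.32, 6.66, 8.95, 9.73 and 8.65 at 2 d against 5.18, 6.26, 4.95, 5.96 and 6.34 at 1 h, so that 2 d replicate 2 lay only just above the highest 1 h array. The thymidylate synthase gene Tyms fell by 0.44 ± 0.12 (adjusted p = 0.00918) on a dim probe set with a 1 h mean of 3.46. Averaged probe sets gave -0.05 and quantile normalization -0.34, and neither was called. Of the 22 measured repair and damage checkpoint genes, 11 rose. Brca1, of homologous recombination repair, rose by 1.74 ± 0.26 (adjusted p = 2.7e-05), Rad51ap1, a partner of the recombinase, rose by 2.01 ± 0.31 (adjusted p = 4.97e-05), Rad18, a ubiquitin ligase of damage bypass, rose by 0.98 ± 0.21 (adjusted p = 0.00159), and Rad54b, a relative of the Rad54 strand exchange factor, rose by 0.68 ± 0.16 (adjusted p = 0.00274). Rmi2 (-0.27, call lost in 11 of 22 other settings, at -0.27 to -0.18), a helicase partner, was the member that fell. On the brightest probe set of the table Rad18 differed by 0.53 and was not called. Without dim probe sets 7 of the repair genes were called higher. With averaged probe sets the values were 1.13 for Rrm1 and 0.78 for Brca1.

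Regulators of the cell cycle rose as well. Of 27 measured cyclins, kinases and E2F genes, 14 rose and none fell. Mki67, whose protein marks every phase of the cycle outside rest, read 4.29, 4.33, 4.07, 4.34 and 4.72 on the 1 h arrays and 8.42, 6.40, 8.06, 8.22 and 7.40 on the 2 d arrays. It rose by 3.35 ± 0.26 (adjusted p = 2.82e-09). Cdk1, the kinase that drives entry into mitosis, read 6.17, 6.15, 5.98, 6.16 and 6.75 at 1 h and 9.48, 7.28, 9.10, 9.64 and 8.88 at 2 d. It rose by 2.63 ± 0.29 (adjusted p = 5.14e-07). In both genes the groups did not overlap, and replicate 2 was the lowest 2 d array. Ccnd1, the cyclin of the G1 phase, rose by 2.53 ± 0.36 (adjusted p = 1.68e-05). Rbl1, a relative of the retinoblastoma protein, rose by 3.28 ± 0.31 (adjusted p = 5.58e-08), and with averaged probe sets by 0.98.

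Most genes of mitosis itself rose. Of 78 measured genes of spindle, kinetochore and chromosome segregation, 53 rose, 42 of them at least 2-fold, and the median difference was 1.12. Birc5 and Cdca8 encode survivin and borealin, partners in the chromosomal passenger complex. Birc5 read 3.63, 3.79, 3.68, 3.75 and 4.42 at 1 h and 8.33, 5.49, 8.07, 8.37 and 7.36 at 2 d. It rose by 3.67 ± 0.35 (adjusted p = 6.38e-08). Cdca8 rose by 3.18 ± 0.28 (adjusted p = 2.32e-08). Smc2, a condensin subunit that compacts chromosomes, rose by 3.51 ± 0.38 (adjusted p = 3.87e-07), and Cep55, which acts at the final cut between daughter cells, rose by 3.33 ± 0.33 (adjusted p = 8.77e-08). Cenpk (-0.33, call lost in 10 of 22 other settings, at -0.33 to -0.13), a kinetochore gene, was the member that fell. The mean over probe sets was 1.82 for Smc2 and 1.89 for Cep55, and without cross-hybridising probe sets Cdca8 rose by 1.06. Of the 10 histone and chromatin genes tied to replication 4 rose as well. Hmgb2, a chromatin protein of dividing cells, rose by 2.19 ± 0.31 (adjusted p = 1.38e-05), Hat1, which acetylates newly made histones, rose by 1.80 ± 0.27 (adjusted p = 2.82e-05), the histone variant gene H2az1 rose by 1.06 ± 0.16 (adjusted p = 3.89e-05), and Lmnb2, a lamin of the nuclear envelope, rose by 0.70 ± 0.14 (adjusted p = 0.000995).

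The promoters of these genes are shown because the genes of a phase moved together. Sequences are from RefSeq (GRCm38.p6), from 250 bases before to 50 bases after the transcription start, and positions are those of a motif's first base counted from the start. Of the called mitotic genes, 47 of 54 had a promoter in the table, 51 promoters in all. The CCAAT box, searched as CCAAT on both strands, was in 37 of them (72.5%), and the core of the cell cycle homology region, TTTGAA on both strands, in 32 (62.7%). Over all 32851 promoters of the table the shares were 37.4% and 17.9%. Both motifs were together in 25 (49%) of the mitotic promoters and in 6.95% of all. The 24 mitotic genes that were not called had both in 8 of 19 promoters (42.1%). Among called replication genes 20 of 28 had a promoter, 23 in all. Of these, 12 (52.2%) held a form of the E2F site, that is TTTGGCG or its relatives TTTCCCG and TTTCGCG on either strand, against 5.58% of all promoters, and so did 7 of 12 (58.3%) among the replication genes not called. In the following 3 promoters, of 2 mitotic genes and of a helicase gene, capitals mark the motif letters.
Cdca8, chr4:124936868-124937167, minus strand: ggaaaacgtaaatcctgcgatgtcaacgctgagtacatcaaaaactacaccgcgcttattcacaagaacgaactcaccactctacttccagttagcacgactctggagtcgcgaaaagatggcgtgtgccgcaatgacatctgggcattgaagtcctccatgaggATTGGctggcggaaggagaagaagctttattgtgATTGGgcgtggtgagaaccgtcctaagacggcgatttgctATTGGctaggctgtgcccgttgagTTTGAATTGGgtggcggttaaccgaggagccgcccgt
Smc2, chr4:52438971-52439270, plus strand: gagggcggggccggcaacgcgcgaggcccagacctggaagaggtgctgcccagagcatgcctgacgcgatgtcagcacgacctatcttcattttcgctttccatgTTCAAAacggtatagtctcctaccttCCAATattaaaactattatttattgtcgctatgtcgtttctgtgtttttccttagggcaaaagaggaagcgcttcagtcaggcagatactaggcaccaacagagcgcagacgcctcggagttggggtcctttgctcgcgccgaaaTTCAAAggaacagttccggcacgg
Mcm6, chr1:128359656-128359955, minus strand: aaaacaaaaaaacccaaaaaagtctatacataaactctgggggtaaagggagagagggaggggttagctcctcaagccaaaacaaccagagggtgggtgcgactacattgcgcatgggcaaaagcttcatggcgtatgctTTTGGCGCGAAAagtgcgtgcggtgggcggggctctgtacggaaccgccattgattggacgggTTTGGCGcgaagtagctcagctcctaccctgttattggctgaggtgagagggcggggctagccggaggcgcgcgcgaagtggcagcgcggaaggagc
The Cdca8 promoter holds CCAAT on the reverse strand, read as ATTGG, at -85, -51, -11 and 19, and TTTGAA at 14. The Smc2 promoter holds CCAAT at -119 and TTTGAA on the reverse strand, read as TTCAAA, at -145 and 27. The Mcm6 promoter holds TTTGGCG at -110 and -47, and TTTCGCG on the reverse strand, read as CGCGAAA, at -105, which overlaps the first. A match of letters is a description of the sequence only.

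Replicate 2 at 2 d was the lowest 2 d array in the means of the replication, mitotic, cyclin and repair lists. The mean of the replication list was 5.85 on it and 6.55 to 6.93 on the other 2 d arrays, against 5.15 to 5.38 at 1 h. For the mitotic list these values were 4.92, 5.78 to 6.26, and 4.48 to 4.62. For the cyclins they were 5.37, 5.98 to 6.38, and 4.94 to 5.14. The array thus lay above every 1 h array in these 3 lists and below every other 2 d array. For the repair and checkpoint list it stood at 4.22, within the 4.11 to 4.32 of the 1 h arrays, while the other 2 d arrays were at 4.72 to 5.05. Its mean over the monocyte and macrophage markers was 7.42, within the 7.01 to 7.64 of the 2 d arrays.

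**Figure D2:**
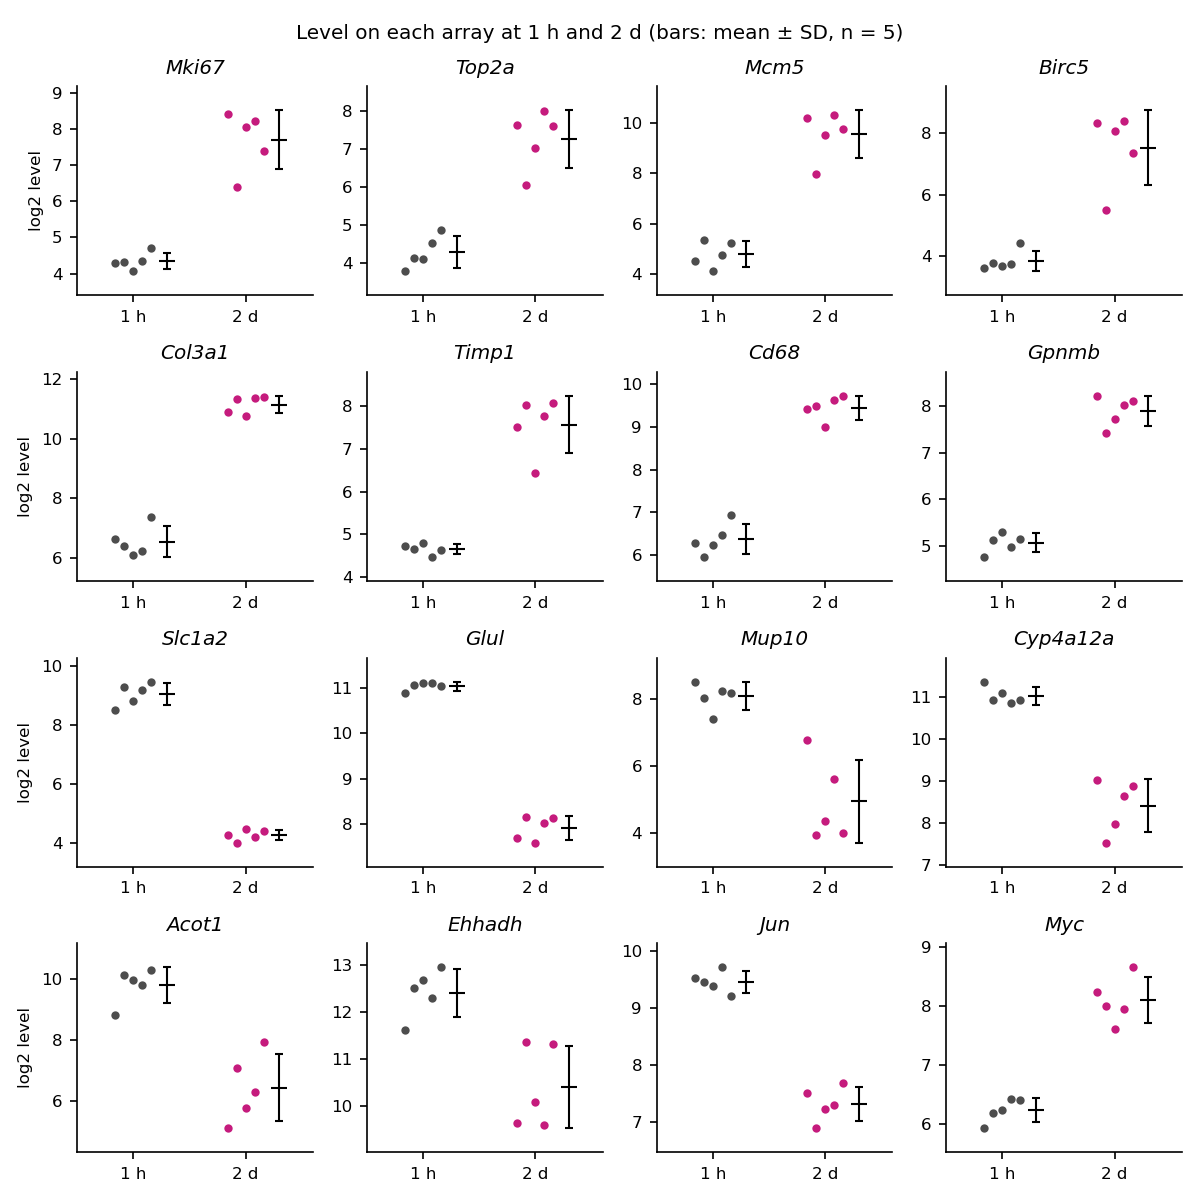
Log2 values (vertical axes) of 16 genes on each of the 5 arrays at 1 h and the 5 arrays at 2 d, with bars at the mean ± SD of each group. The 2 d arrays of Mki67, Top2a, Mcm5 and Birc5 spread over 1.95 to 2.88 log2 units with replicate 2 lowest, those of Slc1a2 and Glul lie within 0.44 and 0.57, and those of Mup10 spread over 2.85.

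**Figure D3:**
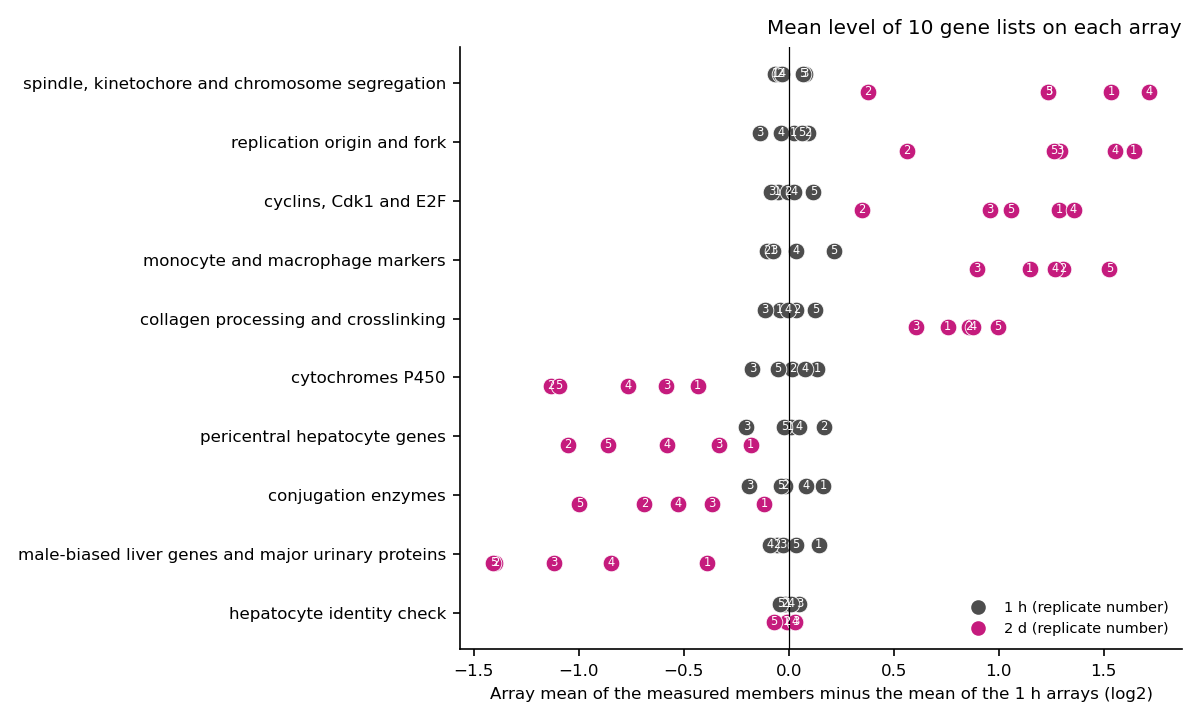
Mean level of the measured members of 10 gene lists on each array (log2, horizontal axis), given as the difference from the mean of the 1 h arrays, with the replicate number in each point. Replicate 2 at 2 d is lowest of the 2 d arrays for the 3 cell cycle lists, the cytochromes P450 and the pericentral genes, and replicate 1 is highest for the P450, pericentral, conjugation and male-biased lists.

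The inhibitors of the cycle and targets of p53, the transcription factor of the damage response, rose in part. Of 22 measured members 7 rose and none fell, with a median of 0.20, which centring on ribosomal protein genes turned to -0.09. Eda2r, a death receptor of the tumour necrosis factor family, rose by 1.61 ± 0.28 (adjusted p = 0.000151), Zmat3, an RNA-binding p53 target, rose by 0.94 ± 0.20 (adjusted p = 0.00115), Ccng1 (cyclin G1) rose by 0.80 ± 0.21 (adjusted p = 0.00804), and Aen, an apoptosis nuclease, rose by 0.72 ± 0.13 (adjusted p = 0.000256). Eda2r read 4.26, 4.59, 4.40, 5.63 and 5.93 at 2 d and 3.25, 3.31, 3.32, 3.23 and 3.66 at 1 h, and 2 d replicates 4 and 5 stood over 1 log2 unit above the other 3. With averaged probe sets Aen differed by 0.26.

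Most measured ribosomal protein genes rose by small steps. Of 30 measured ribosomal protein genes 22 rose and none fell, with a median of 0.40 and none at 2-fold. Rpsa, of the small subunit, read 10.94, 11.12, 10.66, 10.82 and 10.84 at 1 h and 11.61, 11.75, 11.64, 11.79 and 11.81 at 2 d and rose by 0.84 ± 0.09 (adjusted p = 3.42e-07). Rps7, also of the small subunit, rose by 0.56 ± 0.07 (adjusted p = 3.07e-06). The arrays of each group lay within 0.46 of each other for Rpsa. Without probe sets marked for cross-hybridisation 10 members were called higher, and with centring on their own mean 7. The median of the list was 0.10 under that centring. Of 42 measured chaperones and stress response genes of the endoplasmic reticulum 20 rose and 1 fell. Dnajc10, a disulphide reductase, rose by 1.39 ± 0.22 (adjusted p = 4.93e-05), Ssr1, a subunit of the translocon-associated complex, rose by 1.12 ± 0.24 (adjusted p = 0.00174), Spcs3, of the signal peptidase, rose by 0.85 ± 0.16 (adjusted p = 0.000367), and Eif2ak3, the stress sensor PERK, rose by 0.92 ± 0.20 (adjusted p = 0.00159). The exception was Herpud1, which serves the breakdown of misfolded proteins and fell by 0.68 ± 0.16 (adjusted p = 0.00333). Averaged probe sets gave 0.42 for Eif2ak3 and 0.57 for Ssr1.

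Among splicing and RNA-binding factors 23 of 56 rose. Srsf1, a serine- and arginine-rich splicing factor, rose by 1.36 ± 0.16 (adjusted p = 1.36e-06), Ddx39a, an RNA helicase of mRNA export, rose by 1.56 ± 0.18 (adjusted p = 1.05e-06), and Snrpf, a core protein of the spliceosome, rose by 1.04 ± 0.16 (adjusted p = 5.52e-05). The kinases that phosphorylate such splicing factors went the other way, as Clk1 fell by 1.02 ± 0.18 (adjusted p = 0.000181) and Clk4 fell by 0.90 ± 0.19 (adjusted p = 0.00133). Clk1 read 9.03, 9.13, 8.80, 9.23 and 9.32 at 1 h and 8.02, 8.49, 7.74, 8.16 and 7.98 at 2 d. Mbnl1 (-0.36, call lost in 4 of 23 other settings, at -0.30 to 0.17) was the third member that fell. The list's median of 0.29 became -0.01 with ribosomal centring. Of the Myc and ribosome biogenesis genes 17 of 54 rose, among them Nop58, of the small nucleolar ribonucleoproteins, by 1.06 ± 0.29 (adjusted p = 0.0108), the RNA polymerase I subunit gene Polr1e by 0.78 ± 0.17 (adjusted p = 0.00204) and the polyamine enzyme gene Odc1 by 0.74 ± 0.12 (adjusted p = 4.97e-05). Mycn (-0.28 ± 0.08, call lost in 6 of 23 other settings, at -0.28 to -0.20) was the member that fell. The count of those that rose was 11 without 1 h replicate 3, 11 without 2 d replicate 1, 9 without 2 d replicate 5 and 6 with ribosomal centring. Myc itself, the transcription factor, rose by 1.86 ± 0.58 (adjusted p = 0.0232), and without 2 d replicate 5 its difference of 1.72 was not called (adjusted p = 0.06). Its mean was 9.72 at 12 h and 9.03 at 1 d, both above the 8.10 of 2 d.

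Amino acid supply was mixed. Of the 40 measured tRNA synthetase and ATF4 target genes 11 rose and 6 fell, and 7 rose without 2 d replicate 5. Psat1, of serine synthesis, read 4.06, 3.62, 4.26, 3.80 and 3.53 at 1 h and 6.84, 6.75, 6.46, 7.62 and 7.79 at 2 d and rose by 3.24 ± 0.37 (adjusted p = 8.87e-07). Its mean was higher still at 12 h (7.75) and 1 d (8.31). The synthetase genes Iars and Hars rose by 0.81 ± 0.12 and by 0.81 ± 0.15 (highest adjusted p 0.00025). Ddit3, a transcription factor of prolonged stress also called CHOP, fell by 0.95 ± 0.19 (adjusted p = 0.000919). Ddit3 differed by -0.62 on the brightest probe set of the table and was not called.

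Most measured genes of the cytoskeleton rose. Of the list of actin, tubulin and cytoskeleton regulators 29 of 41 rose, 19 at least 2-fold, with a median of 0.84. Vim encodes vimentin, the intermediate filament protein of mesenchymal and blood-derived cells. It read 6.92, 6.69, 5.77, 6.75 and 7.20 at 1 h and 10.22, 11.11, 10.57, 10.91 and 10.78 at 2 d and rose by 4.05 ± 0.27 (adjusted p = 4.06e-10). Capg, which caps actin filaments, rose by 3.29 ± 0.23 (adjusted p = 5.05e-10), and Msn, moesin, which ties actin to the membrane, rose by 3.01 ± 0.26 (adjusted p = 1.1e-08). For each of these, having every 2 d array above every 1 h array was a condition of its naming. Ezr (-0.44), the relative of Msn found in epithelia, and Tuba8 (-0.49, call lost in 13 of 23 other settings, at -0.50 to -0.34), an alpha tubulin, were the members that fell. The probe set shown for Ezr is marked for cross-hybridisation. On its unmarked probe sets Ezr differed by 2.29, called higher (adjusted p = 9.84e-07), and averaged probe sets gave 0.93, also called. Its fall was not called in 11 further settings, at -0.60 to -0.29. On the brightest probe set of the table Tuba8 differed by -1.08. Macrophages carry much of these proteins too. The mean of the macrophage marker list moved with them, from 6.01 to 6.33 on the 1 h arrays to 7.01 to 7.64 on the 2 d arrays, and its part in them was not tested. Annexins and S100 proteins, which bind membranes and partners under calcium, followed, with 9 of 18 risen. Anxa3 read 8.49, 8.74, 9.10, 10.39 and 10.37 at 2 d against 5.41, 5.30, 5.76, 5.76 and 5.55 at 1 h and rose by 3.86 ± 0.33 (adjusted p = 1.28e-08). Anxa1 rose by 3.46 ± 0.24 (adjusted p = 5.05e-10), Anxa5 rose by 1.89 ± 0.22 (adjusted p = 8.55e-07) and S100a4 rose by 3.40 ± 0.30 (adjusted p = 1.73e-08). For Anxa3, replicates 4 and 5 stood over 1 log2 unit above the other 2 d arrays. With averaged probe sets the values were 2.05 for Capg and 1.63 for Anxa1.

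Sprr1a, Lgals1 and Slc25a24 rose strongly outside any list. Sprr1a, a small proline-rich protein of epithelial barriers, read 5.13, 4.52, 5.09, 5.13 and 5.11 at 1 h and 8.04, 8.28, 9.34, 10.54 and 10.34 at 2 d. It rose by 4.31 ± 0.34 (adjusted p = 3.87e-09), and its means at 12 h and 1 d were 10.43 and 10.31, the highest of the 5 times. Lgals1, the sugar-binding protein galectin-1, rose by 4.34 ± 0.34 (adjusted p = 3.27e-09), from 6.69 to 11.03. Slc25a24, a mitochondrial carrier of ATP and phosphate, rose by 3.63 ± 0.33 (adjusted p = 2.63e-08). For Sprr1a and Slc25a24, 2 d replicates 4 and 5 were the highest arrays.

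Bile duct and progenitor genes were called in both directions. Of 26 measured members 7 rose and 2 fell, where the shares over all genes were 12.8% and 12.3%. The median was 0.07. The duct marker Epcam lay at 5.09 ± 0.27 at 1 h and 5.12 ± 0.15 at 2 d (mean ± SD, n = 5), and Sox9, a transcription factor of ducts, differed by 0.78 ± 0.35 (adjusted p = 0.103). The members that rose include Cd24a, a surface glycoprotein, by 2.35 ± 0.49 (adjusted p = 0.00113), the hyaluronan receptor gene Cd44 by 2.83 ± 0.32 (adjusted p = 7.71e-07), and Jag1, a Notch ligand, by 1.58 ± 0.25 (adjusted p = 7.06e-05). The members that fell were the transcription factor genes Sox4 (-0.32, call lost in 9 of 23 other settings, at -0.32 to -0.25) and Ehf (-0.39, call lost in 8 of 22 other settings, at -0.36 to -0.02). With averaged probe sets Sox4 was called higher, at 0.52. Among 23 measured fetal and imprinted growth genes 6 rose. They include Hmga2, a chromatin protein of embryonic cells, which rose by 1.45 ± 0.23 (adjusted p = 5.31e-05), and Akr1b8, an aldo-keto reductase, which rose by 2.30 ± 0.25 (adjusted p = 3.38e-07). Afp, alpha-fetoprotein, had the largest rise of the list, by 2.75 ± 0.32 (adjusted p = 9.53e-07), on a probe set marked for cross-hybridisation. Another marked probe set of Afp differed by 0.83 and was called (adjusted p = 0.00075). The unmarked probe set of Afp differed by -0.03 and was not called (adjusted p = 0.899). Grb10, an adaptor that restrains insulin signalling, rose by 1.52 ± 0.31 (adjusted p = 0.000979), and averaged probe sets gave 0.42 for Grb10 and 1.84 for Cd44. Igf2bp3 (-0.37 ± 0.10) and the noncoding RNA Mirg (-0.91 ± 0.20) fell, by 0.18 and 0.54 with averaged probe sets. Igf2, the fetal growth factor, differed by -0.16 ± 0.14 (adjusted p = 0.404). The medians of both lists were below 0 with ribosomal centring, at -0.23 and -0.22.

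Matrix genes rose in part. Of 53 measured matrix genes 22 rose, 16 at least 2-fold, 2 fell and 29 were not called, so that the median was 0.17, and -0.12 with ribosomal centring. Col3a1, a fibrillar collagen of young scars, read 6.63, 6.39, 6.09, 6.24 and 7.38 on the 1 h arrays and 10.91, 11.32, 10.76, 11.36 and 11.40 on the 2 d arrays. It rose by 4.60 ± 0.39 (adjusted p = 1.18e-08). Col4a1, of basement membranes, rose by 3.05 ± 0.27 (adjusted p = 2.03e-08), and Col1a1, the main collagen of mature scars, rose by 1.98 ± 0.22 (adjusted p = 4.03e-07). All 5 arrays at 2 d lay above all 5 at 1 h for the 3 genes, and the 2 d arrays of Col3a1 lay within 0.64. The 12 h and 1 d means of Col3a1 were 5.96 and 7.50, far under the 11.15 of 2 d, while Col4a1 had reached 9.28 at 1 d. Sparc, a matrix protein that binds collagen, rose by 2.79 ± 0.22 (adjusted p = 2.82e-09), or by 1.24 with averaged probe sets. The members that fell were Col18a1, the collagen of liver basement membranes, which fell by 0.70 ± 0.19 (adjusted p = 0.01), and Fbln5 (-0.52, call lost in 11 of 23 other settings, at -0.53 to 0.04), a fibulin of elastic fibres.

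Of the 17 measured genes of collagen processing 9 rose and none fell. Serpinh1, the collagen chaperone HSP47, read 5.43, 5.87, 5.45, 5.70 and 6.08 at 1 h and 8.88, 8.65, 8.48, 9.0 and 9.17 at 2 d and rose by 3.13 ± 0.21 (adjusted p = 4.21e-10). Pcolce, which aids the cutting of procollagen, rose by 1.48 ± 0.16 (adjusted p = 2.23e-07), the crosslinking enzyme genes Tgm2 and Tgm1 rose by 1.66 ± 0.29 and by 1.51 ± 0.24 (highest adjusted p 0.000214), and Lox, lysyl oxidase, rose by 0.91 ± 0.19 (adjusted p = 0.00113). The mean over probe sets was 0.45 for Lox. Among 18 measured proteases and inhibitors 8 rose and none fell. Mmp12, the elastase of macrophages, read 3.52, 3.67, 3.71, 3.82 and 3.24 at 1 h and 7.53, 6.98, 7.80, 7.94 and 7.89 at 2 d and rose by 4.04 ± 0.38 (adjusted p = 5.63e-08). Timp1, an inhibitor of such proteases, read 4.74, 4.66, 4.79, 4.48 and 4.63 and 7.51, 8.01, 6.43, 7.77 and 8.06 and rose by 2.90 ± 0.33 (adjusted p = 6.47e-07). Plaur, the urokinase receptor, rose by 1.64 ± 0.36 (adjusted p = 0.00199). The groups were apart for Timp1, a gene of the fixed panel, and 2 d replicate 3 was its lowest 2 d array. Mmp12 was already at 6.65 at 12 h, when Timp1 was at 5.01.

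The Mmp12 promoter is given because it holds the site of AP-1, the factor built from Jun and Fos proteins. That site, TGACTCA on either strand, was in 2 of the 9 promoters of the 8 called protease and inhibitor genes (22.2%), in 1 of 5 promoters of those not called (20%) and in 5.2% of all promoters. Capitals mark it.
Mmp12, chr9:7347124-7347423, plus strand: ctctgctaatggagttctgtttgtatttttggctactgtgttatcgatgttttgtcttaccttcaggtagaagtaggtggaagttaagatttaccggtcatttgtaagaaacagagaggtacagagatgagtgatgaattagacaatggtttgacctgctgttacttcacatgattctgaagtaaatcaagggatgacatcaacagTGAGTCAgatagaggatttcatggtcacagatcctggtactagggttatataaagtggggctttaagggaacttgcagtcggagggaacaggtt
The site lies on the reverse strand at -44. With 2 promoters the share is a description of these genes only.

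Stellate cells make matrix in injured liver. Of 23 measured markers of these cells 4 rose and 2 fell, against shares over all genes of 12.8% higher and 12.3% lower. The median was -0.01, which was 0.05 after median centring. Pdgfrb, the growth factor receptor of stellate cells and pericytes, read 5.11, 5.46, 3.94, 5.13 and 5.57 at 1 h and 7.87, 8.35, 7.41, 8.13 and 8.44 at 2 d and rose by 3.00 ± 0.32 (adjusted p = 2.72e-07). Ngfr, a nerve growth factor receptor of stellate cells, rose by 1.06 ± 0.14 (adjusted p = 5.56e-06) and Cthrc1, a secreted protein of matrix-making cells, rose by 1.09 ± 0.16 (adjusted p = 1.6e-05). Des, the stellate filament protein desmin, rose by 0.57 ± 0.10 (adjusted p = 0.000119), but another probe set of Des differed by -0.49 and was called the other way, and the average of its probe sets was 0.04. The members that fell were Angptl6, a secreted angiopoietin-like protein, which fell by 0.82 ± 0.16 (adjusted p = 0.000743), and the stellate transcription factor gene Tcf21, which fell by 0.33 ± 0.09 (adjusted p = 0.0122). Tcf21 differed by 0.86 on the brightest probe set of the table, called the other way, and with quantile normalization it was not called (-0.22). Among the TGF beta, activin and BMP genes 10 of 31 rose, or 6 without 1 h replicate 3, without 2 d replicate 1 or without 2 d replicate 5. Fstl1, a secreted follistatin-like protein, rose by 3.30 ± 0.25 (adjusted p = 1.66e-09), Id1, a target of BMP signals, rose by 2.33 ± 0.26 (adjusted p = 4.51e-07), and Tgfbr2, a TGF beta receptor, rose by 1.52 ± 0.24 (adjusted p = 5.55e-05). Bmp7 (-0.44, call lost in 2 of 23 other settings, at -0.44 to -0.38, and -0.28 without 1 h replicate 3), a bone morphogenetic protein, was the member that fell. The list's median of 0.19 became -0.11 with ribosomal centring. Averaged probe sets gave 0.63 for Ngfr.

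Most markers of monocytes and macrophages rose. Of 49 measured members 32 rose, 25 at least 2-fold, and none fell. The median was 1.09, and the list's mean was 6.01 to 6.33 on the 1 h arrays and 7.01 to 7.64 on the 2 d arrays. Cd68, a lysosomal protein of phagocytes, read 6.27, 5.95, 6.22, 6.46 and 6.92 at 1 h and 9.42, 9.50, 8.99, 9.64 and 9.72 at 2 d and rose by 3.09 ± 0.22 (adjusted p = 6.26e-10). Lgals3, galectin-3, read 6.48, 6.06, 5.78, 6.45 and 7.13 and 10.80, 10.92, 10.81, 11.16 and 11.43 and rose by 4.65 ± 0.32 (adjusted p = 5.05e-10). F13a1, a transglutaminase of monocytes, rose by 3.29 ± 0.46 (adjusted p = 1.14e-05), and Itgb2, the shared chain of leukocyte integrins, rose by 2.22 ± 0.26 (adjusted p = 1.28e-06). Ccr2, a chemokine receptor of monocytes and a gene of the fixed panel, had a mean of 5.98 at both times and was not called (adjusted p = 0.999). The groups were apart for Cd68, a gene of the fixed panel, and the spread within 2 d was 0.73 for Cd68 and 1.85 for F13a1.

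Genes of the lipid-laden macrophage state that clears debris rose in 9 of 16 measured members. Gpnmb, a glycoprotein of such cells, read 4.77, 5.13, 5.30, 4.99 and 5.16 at 1 h and 8.22, 7.43, 7.73, 8.02 and 8.11 at 2 d and rose by 2.83 ± 0.17 (adjusted p = 7.18e-11). Its mean at 1 d was 5.45, and averaged probe sets gave 1.64. Cd36, a scavenger receptor that hepatocytes also carry, rose by 1.97 ± 0.26 (adjusted p = 4.77e-06), and Fabp4, a fatty acid binding protein also found in endothelium, rose by 2.22 ± 0.35 (adjusted p = 4.64e-05), or by 0.74 with averaged probe sets. Lysosome and phagocytosis genes rose in 11 of 46 members, or 18 on the brightest probe sets of the table, with a median of 0.04. Among them Ctss, cathepsin S of antigen-presenting cells, rose by 1.48 ± 0.19 (adjusted p = 4.08e-06) and Manba, a lysosomal mannosidase, rose by 1.09 ± 0.26 (adjusted p = 0.00405). Atp6v0a1 (-0.54, call lost in 11 of 23 other settings, at -0.65 to 0.27), a subunit of the proton pump, was the member that fell.

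Resident Kupffer cell markers moved unevenly. Of 21 measured members 10 rose and 2 fell, or 6 rose with ribosomal centring. Clec4f, the lectin that defines Kupffer cells, read 8.57, 8.31, 8.33, 8.65 and 8.83 at 1 h and 8.71, 8.58, 8.44, 8.63 and 8.38 at 2 d and differed by 0.01 ± 0.16 (adjusted p = 0.974). Its groups overlapped, and so did those of Timd4, a receptor for dying cells, which differed by 0.33 ± 0.26 (adjusted p = 0.351). Marco, a scavenger receptor for bacteria and debris, rose by 2.16 ± 0.26 (adjusted p = 1.32e-06), from 6.51 to 8.66. The complement component genes C1qb and C1qc rose by 1.22 ± 0.20 and by 1.12 ± 0.15 (highest adjusted p 7.13e-05). The listed members that fell were Slc1a2 and C6. Both are given below among genes of hepatocytes, so their falls cannot be assigned to Kupffer cells.

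The counts for markers of other white blood cells stand beside shares over all genes of 12.8% higher and 12.3% lower. Of 14 measured neutrophil markers 2 rose. Lcn2, lipocalin 2, which injured hepatocytes also make, read 8.23, 8.44, 8.73, 7.97 and 8.30 at 1 h and 11.97, 12.97, 11.49, 11.99 and 12.58 at 2 d and rose by 3.86 ± 0.54 (adjusted p = 1.12e-05). Itgal, an integrin chain found on most leukocytes, rose by 0.71 ± 0.21 (adjusted p = 0.0194), and its call was lost without 1 h replicate 3 (0.60) or 2 d replicate 5 (0.64), with averaged probe sets (0.35) and with ribosomal centring (0.41). S100a9, an alarmin abundant in neutrophils, differed by 1.72 ± 0.67 (adjusted p = 0.0663), although all its 2 d arrays lay above those of 1 h. Its mean had been 9.60 at 1 d. Among 27 measured T cell and NK cell markers 1 rose, Il7r by 0.59 ± 0.17 (adjusted p = 0.0155), and 4 fell. The latter were the T cell kinase gene Zap70 (-0.54 ± 0.14), the interleukin receptor gene Il2rb (-0.48 ± 0.11), the adaptor gene Skap1 (-0.43, call lost in 6 of 22 other settings, at -0.42 to -0.24) and the transcription factor gene Bcl11b (-0.40, call lost in 14 of 23 other settings, at -0.42 to -0.32, or -0.26 with averaged probe sets). These falls are within the size of those of the foreign genes above, and 2 of them were called without 1 h replicate 3, 2 d replicate 1, 2 d replicate 4 or 2 d replicate 5. Without 2 d replicate 5 the difference of Il7r was 0.50 and not called, nor was it with ribosomal centring (0.30). On the brightest probe set of the table Il2rb differed by -0.22 and was not called. Of 16 B cell and plasma cell markers 4 rose, namely Xbp1 (0.45 ± 0.10), Blnk (0.90), Bank1 (0.72, call lost in 5 of 23 other settings, at 0.43 to 0.65) and Sdc1 (0.46, call lost in 1 of 23 other settings, at 0.16), of which Xbp1 and Sdc1 are also made by hepatocytes, and Mzb1 fell (-0.50 ± 0.12). With ribosomal centring Xbp1 was not called (0.15). Of 13 dendritic cell markers 4 rose, namely Wdfy4 (0.88 ± 0.13), Ly75 (0.35 ± 0.12, call lost in 7 of 22 other settings, at 0.06 to 0.35), Bst2 (0.40, call lost in 9 of 23 other settings, at 0.10 to 0.40) and Naaa (0.68, call lost in 1 of 23 other settings, at 0.15), and averaged probe sets gave 0.38 for the first. Without 1 h replicate 2, 2 d replicate 1, 2 d replicate 4 or 2 d replicate 5 the count was 2.

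Interferon-induced genes were higher at 2 d, whereas their medians at 12 h and 1 d lay below 0. Of 39 measured members 19 rose and none fell, with a median of 0.54, where the medians at 12 h and 1 d had been -0.18 and -0.09. Oasl2, a sensor relative of the oligoadenylate synthetases, read 4.06, 4.17, 4.29, 4.41 and 4.21 at 1 h and 5.70, 6.33, 5.51, 6.35 and 7.07 at 2 d and rose by 1.97 ± 0.28 (adjusted p = 1.22e-05). Trim30a, a regulator of innate signals, rose by 1.87 ± 0.26 (adjusted p = 9.51e-06), Xaf1, which promotes cell death, rose by 1.53 ± 0.23 (adjusted p = 3.72e-05), and Ifitm1, a membrane protein that blocks virus entry, rose by 1.42 ± 0.24 (adjusted p = 0.000145). Replicate 5 at 2 d was the highest array for Oasl2, Trim30a and Xaf1. The count of the list was 12 without 1 h replicate 3, 11 without 2 d replicate 5 and 12 with ribosomal centring. With averaged probe sets the values were 0.74 for Xaf1, and the brightest probe set of the table gave 1.24 for Trim30a. Ifitm1 differed from the other 3, as its mean was already 8.46 at 12 h. Antigen presentation genes of class I and class II were counted in 1 list, beside shares over all genes of 12.8% higher and 12.3% lower. H2-K1, a class I heavy chain, read 12.78, 12.81, 12.75, 12.79 and 12.77 at 1 h and 12.32, 12.51, 12.31, 12.35 and 12.32 at 2 d and fell by 0.42 ± 0.06 (adjusted p = 2.83e-05), with the arrays of each group within 0.20. All its probe sets described here are marked for cross-hybridisation, so they may read other genes. The others differed by -0.49 and -0.75, both called, and by -0.18, not called (adjusted p = 0.159). Of 16 presentation genes 2 rose, the peptide transporter gene Tap2 (0.49, call lost in 3 of 23 other settings, at 0.20 to 0.41) and Tapbp (0.49 ± 0.18), and 3 fell, H2-K1, B2m (-0.19 ± 0.07, call lost in 15 of 23 other settings, at -0.20 to -0.11), the light chain, and H2-Q10 (-0.22, call lost in 11 of 23 other settings, at -0.22 to -0.15), of the liver. The call of Tapbp was lost in 13 settings, among them those leaving out any of 8 arrays (0.41 to 0.53). Leaving out 1 array gave 0 to 2 rises and 1 to 3 falls in this list, and median centring gave 1 fall.

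Cytokine genes and their receptors were called at 16 of 53 higher and 5 of 53 lower, with a median of 0.05. Tnfrsf11b, osteoprotegerin, a decoy receptor for a bone cytokine, read 2.93, 3.29, 2.32, 3.16 and 3.19 at 1 h and 6.39, 6.36, 6.10, 7.11 and 6.73 at 2 d and rose by 3.56 ± 0.30 (adjusted p = 9.66e-09). Tlr13, a sensor of bacterial RNA in macrophages, rose by 1.69 ± 0.27 (adjusted p = 5.49e-05). Il1b, the cytokine of inflammasome signalling, differed by 0.05 ± 0.34 (adjusted p = 0.931), with overlapping groups. Lifr and Il1rap, receptor chains that hepatocytes carry for interleukin-6 family cytokines and interleukin-1, fell, with differences of -1.67 ± 0.22 and -0.89 ± 0.11 (highest adjusted p 4.01e-06), and averaged probe sets gave -0.55 for Lifr. The other members that fell were Il6ra (-0.59, call lost in 7 of 23 other settings, at -0.60 to -0.52), Il15ra (-0.84) and Csf2 (-0.35, call lost in 1 of 22 other settings, at -0.26). Of 27 measured chemokine and receptor genes 7 rose and 4 fell. Pf4, a chemokine of platelets and macrophages, rose by 2.98 ± 0.33 (adjusted p = 5.64e-07), and Cmtm3, of a chemokine-like family, rose by 1.72 ± 0.22 (adjusted p = 3.22e-06). Cxcl13, which draws B cells, fell by 1.06 ± 0.29 (adjusted p = 0.0109). With it fell Ccl25 (-0.52, call lost in 6 of 23 other settings, at -0.52 to -0.38), Ccl27a (-1.20) and Ackr4 (-0.34, call lost in 12 of 23 other settings, at -0.35 to 0.07), a scavenging receptor, and 2 of the 4 were called without 2 d replicate 2 or 2 d replicate 3. Among the complement genes the receptors C3ar1 and C5ar1 of myeloid cells rose by 2.84 ± 0.30 and by 2.61 ± 0.32, whereas the lytic components C6 and C8b, made by hepatocytes, fell, with differences of -2.19 ± 0.23 and -0.90 ± 0.15 (highest adjusted p 0.000133). On the brightest probe set of the table C3ar1 and C5ar1 differed by 1.35 and 1.00.

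Endothelial genes were higher in part. Of 51 measured members 20 rose and none fell, with a median of 0.30. Esm1, a proteoglycan of sprouting vessel tips, read 3.03, 2.78, 2.42, 2.49 and 2.61 at 1 h and 4.48, 8.24, 4.09, 4.63 and 7.17 at 2 d and rose by 3.05 ± 0.68 (adjusted p = 0.00225). Its 2 d replicates 2 and 5 were at 8.24 and 7.17 and the other 3 at 4.09 to 4.63, so the 2 d arrays formed no even group. Cdh5, the cadherin of vessel junctions, rose by 1.13 ± 0.27 (adjusted p = 0.0036), and Ldb2, a transcriptional cofactor of endothelium, rose by 1.61 ± 0.33 (adjusted p = 0.0011), or by 0.39 and not called on the brightest probe set of the table. Plxnd1, a semaphorin receptor that steers vessels, rose by 1.55 ± 0.21 (adjusted p = 8.26e-06). Of 45 measured angiogenic and growth factor genes 7 rose and 6 fell, against backgrounds of 12.8% and 12.3%, with a median of -0.05. The hepatocyte mitogen Hgf rose by 0.71 ± 0.15 (adjusted p = 0.00137), Vegfc, of lymphatic and venous growth, rose by 1.11 ± 0.21 (adjusted p = 0.000387), and Btc, a ligand of the EGF receptor, rose by 1.58 ± 0.46 (adjusted p = 0.0151). Vegfa, the main vessel growth factor, differed by -0.38 ± 0.20 (adjusted p = 0.168), and the hormone gene Igf1 differed by 0.04 ± 0.09 (adjusted p = 0.745). Its binding proteins diverged, as Igfbp3 rose by 1.29 ± 0.33 (adjusted p = 0.00639) and Igfbp2 fell by 1.37 ± 0.17 (adjusted p = 2.35e-06). Of the integrins and adhesion receptors 13 of 32 rose, among them Itgav by 1.64 ± 0.17 and the tetraspanin Cd151 by 1.13 ± 0.15 (highest adjusted p 8.48e-06), and averaged probe sets gave 0.33 for Itgav.

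Cytochrome P450 genes were lower at 2 d in 15 of 23 measured members, 9 of them at least 2-fold, with a median of -0.73 against a background of 12.3% lower. The single member that rose was Cyp51 of sterol synthesis. The members fell in different manners. Cyp2c38, of the Cyp2c family, read 7.94, 8.11, 7.73, 8.62 and 7.63 at 1 h and 5.28, 5.18, 5.33, 5.44 and 5.16 at 2 d and fell by 2.73 ± 0.20 (adjusted p = 8.25e-10), so its 2 d arrays lay within 0.28 of each other. Cyp4a12a, the male-specific fatty acid hydroxylase, read 11.37, 10.92, 11.10, 10.86 and 10.92 and 9.02, 7.53, 7.97, 8.64 and 8.87 and fell by 2.63 ± 0.23 (adjusted p = 2.07e-08). Cyp2f2, a periportal enzyme, fell by 1.05 ± 0.23 (adjusted p = 0.00156), with 2 d arrays between 10.48 and 12.29. Cyp2d13, of the Cyp2d family, fell by 1.33 ± 0.19 (adjusted p = 1.81e-05). Cyp1a2, one of the enzymes that activate acetaminophen, read 11.67, 11.45, 11.12, 11.44 and 11.04 at 1 h and 12.07, 7.77, 11.24, 9.79 and 8.18 at 2 d. Its 2 d arrays thus ran from far under the 1 h range to above it. It fell by 1.54 ± 0.54 (adjusted p = 0.0427), and that call was lost when any of 8 of the 10 arrays was left out, with differences of -1.03 to -1.61 and adjusted p of 0.0504 to 0.144.

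Conjugating enzymes fell as well. Of 36 measured members 17 fell and 2 rose. Ugt2b1, a glucuronosyltransferase, read 12.31, 12.04, 12.03, 12.04 and 12.12 at 1 h and 11.02, 9.10, 10.04, 9.99 and 8.50 at 2 d and fell by 2.38 ± 0.28 (adjusted p = 1.38e-06). Sult2a8, a sulphotransferase of bile acids, fell by 2.42 ± 0.26 (adjusted p = 4.06e-07). In both, replicates 2 and 5 were the lowest 2 d arrays and replicate 1 the highest, as in Cyp1a2 and Cyp2f2. Ugt3a1, of another glycosyltransferase family, fell by 1.54 ± 0.14 (adjusted p = 2.88e-08) and was even, with 2 d values of 8.04, 8.18, 8.17, 7.83 and 7.96. Ces2a, a carboxylesterase, fell by 1.52 ± 0.28 (adjusted p = 0.000319). Mgst3, a membrane-bound glutathione transferase, rose by 1.82 ± 0.22 (adjusted p = 1.17e-06), or by 0.81 with averaged probe sets, and Tpmt, a methyltransferase, rose by 0.70 ± 0.16 (adjusted p = 0.0026). By array, the mean of the P450 list was 8.31 to 8.62 on the 1 h arrays, and at 2 d it was 8.05, 7.35, 7.90, 7.72 and 7.39 for replicates 1 to 5.

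Bile acid genes fell without exception among those called. Of 14 measured members 7 fell and none rose. Cyp8b1, the enzyme that sets the share of cholic acid, read 11.65, 11.92, 11.77, 11.98 and 11.80 at 1 h and 9.47, 9.95, 9.87, 9.43 and 8.83 at 2 d and fell by 2.31 ± 0.30 (adjusted p = 3.87e-06). Slc27a5, which activates bile acids for conjugation, fell by 0.94 ± 0.12 (adjusted p = 3.56e-06), and Acot12, an acetyl-CoA thioesterase, fell by 1.29 ± 0.15 (adjusted p = 1.25e-06), or by 0.84 with averaged probe sets. Cyp7a1, which catalyses the first step from cholesterol to bile acids, differed by -0.59 ± 0.73 (adjusted p = 0.575). Its 2 d arrays ran from 5.62 to 9.96 and covered the whole 1 h range. Among the transporters, Abcb4, which exports phospholipid into bile, fell by 1.46 ± 0.14 (adjusted p = 5.33e-08), while Abcc4, an efflux pump at the blood side of the hepatocyte, rose by 1.62 ± 0.32 (adjusted p = 0.000635) and Slc10a2, the bile acid importer of ducts and gut, rose by 1.67 ± 0.46 (adjusted p = 0.0102). The list of transporters counted 3 of 32 higher, Abcc1 (1.48) being the third, and 7 of 32 lower.

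Genes of the hepatocytes next to the central vein were among those that fell most. Slc1a2, the glutamate transporter of that cell layer, read 8.51, 9.27, 8.80, 9.17 and 9.46 at 1 h and 4.29, 4.03, 4.47, 4.20 and 4.41 at 2 d. It fell by 4.76 ± 0.22 (adjusted p = 2e-12), and the nearest arrays of the groups were at 8.51 and 4.47. Glul, glutamine synthetase, which uses that glutamate, read 10.87, 11.06, 11.10, 11.09 and 11.03 and 7.69, 8.17, 7.60, 8.03 and 8.13 and fell by 3.11 ± 0.17 (adjusted p = 3.83e-11). In both genes the 2 d arrays lay close together, and the falls were already present at 12 h, when the means were 4.67 and 8.56. At 16 d the means were 8.66 and 11.17, near those of 1 h. Lhpp, a phosphatase of phospholysine, showed the same even pattern at 2 d (6.44, 6.29, 6.35, 6.40 and 6.11) and fell by 2.84 ± 0.28 (adjusted p = 8.22e-08). Wnt is the signal that sets up this layer. Of the 52 measured genes of Wnt, Notch and Hedgehog signalling 5 fell, or 8 without 1 h replicate 3, and 4 rose, against backgrounds of 12.3% lower and 12.8% higher, and the median was -0.17. Lgr5, a receptor for Wnt amplifiers, fell by 1.20 ± 0.23 (adjusted p = 0.00045), and Axin2, a direct Wnt target, fell by 0.67 ± 0.15 (adjusted p = 0.00185). The others of this list that fell were the Wnt receptor gene Fzd5 (-0.67, call lost in 2 of 23 other settings, at -0.59 to -0.58), the secreted Wnt inhibitor gene Sfrp5 (-0.53 ± 0.10, call lost in 1 of 23 other settings, at -0.22) and the Hedgehog inhibitor gene Hhip (-0.56, or -0.31 with averaged probe sets), and those that rose were Jag1, the Wnt amplifier gene Rspo3 (0.99, or 0.37 with averaged probe sets), the beta-catenin gene Ctnnb1 (0.55 ± 0.12, call lost in 1 of 23 other settings, at 0.25) and Heyl (0.50, call lost in 1 of 23 other settings, at 0.21), a Notch target. Tbx3, a transcription factor of the pericentral list, fell by 1.10 ± 0.31 (adjusted p = 0.0119). The mean over probe sets was -2.03 for Slc1a2, -0.73 for Lgr5 and -0.73 for Tbx3. Over the pericentral list 12 of 25 fell, while the aldehyde dehydrogenase gene Aldh1b1 (1.36 ± 0.33), Ccnd1 and Lect2 (1.19) rose. The mean of the list on 2 d replicate 2 was 7.0, on replicate 1 it was 7.87 and on the 1 h arrays 7.85 to 8.22, so replicate 1 reached the lowest 1 h array.

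Periportal genes and those of the urea cycle fell in 11 of 27 measured members, or 7 without 2 d replicate 5, with a median of -0.31. Otc, ornithine transcarbamylase of the urea cycle, read 11.32, 11.06, 11.08, 11.13 and 11.09 at 1 h and 10.65, 9.51, 10.59, 10.09 and 8.92 at 2 d and fell by 1.18 ± 0.24 (adjusted p = 0.00105), with replicates 2 and 5 lowest. Cdh1, the epithelial cadherin enriched near the portal vein, rose by 1.24 ± 0.22 (adjusted p = 0.000204), and Psat1 and Aldh1b1 rose as given above. Aldh1b1 is on the pericentral list as well, so its rise tells nothing about 1 zone. Pck1, the gate of glucose synthesis, differed by -0.35 ± 0.31 (adjusted p = 0.422). Amino acid breakdown counted 26 of 50 lower and none higher. Hpd and Hgd, of tyrosine breakdown, differed by -0.78 ± 0.19 and -0.94 ± 0.23, and Tdo2 and Afmid, of tryptophan breakdown, by -0.93 ± 0.24 and -0.92 ± 0.24 (highest adjusted p 0.007). Csad, of taurine synthesis, fell by 1.56 ± 0.37 (adjusted p = 0.00327). The median of that list was -0.41, and 2 members, Csad and the uridine phosphorylase gene Upp2 (-2.44, call lost in 1 of 23 other settings, at -1.80, without 2 d replicate 5), fell at least 2-fold. Its count was 17 without 1 h replicate 2, 15 without 2 d replicate 5 and 16 with median centring. With averaged probe sets the calls of Hgd (-0.57) and Afmid (-0.44) were lost, and on the brightest probe set of the table Tdo2 differed by -0.42.

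Most genes with higher expression in male liver fell. Of 19 measured members 13 fell, 7 at least 2-fold, and none rose. Mup10, one of the major urinary proteins that carry scents, read 8.52, 8.04, 7.40, 8.24 and 8.19 at 1 h and 6.77, 3.92, 4.35, 5.60 and 4.00 at 2 d and fell by 3.15 ± 0.39 (adjusted p = 2.08e-06). Its family members are nearly identical, so the probe set may read several of them. C6, with the difference given above, read 10.71, 10.64, 10.74, 10.48 and 10.72 at 1 h and 9.36, 8.13, 8.19, 8.70 and 7.96 at 2 d, and Alas2, the erythroid enzyme of heme synthesis, fell by 1.51 ± 0.21 (adjusted p = 1.22e-05). Female-biased genes counted 4 of 19 higher and 8 of 19 lower. Abcd2, a peroxisomal carrier of fatty acids, rose by 2.15 ± 0.46 (adjusted p = 0.00152), or by 0.77 with averaged probe sets, and Tox, a nuclear factor, fell by 1.53 ± 0.19 (adjusted p = 3.15e-06). Rtn4 (1.14), Cd36 and Aldh1b1 were the others that rose. The medians of the male-biased and female-biased lists were -0.80 and -0.40. Of 51 hepatocyte transcription factors 13 fell and 2 rose, with a median of -0.09. The latter were Klf6 (2.64 ± 0.55), an injury-induced factor, and Srebf1 (1.78), of lipid synthesis. Hnf4a, the factor that maintains the hepatocyte state, fell by 0.47 ± 0.10 (adjusted p = 0.00154), a call lost without cross-hybridising probe sets (-0.23) and with averaged ones (-0.32). Ppargc1b, a coactivator of mitochondrial genes, fell by 1.69 ± 0.24 (adjusted p = 1.58e-05).

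Genes of fatty acid burning were lower at 2 d than at 1 h, and several of them were also lower at 16 d than at 1 h. Of 47 measured genes of PPAR alpha, the fatty acid sensor of the fasted liver, and fatty acid oxidation, 26 fell and 3 rose. Acot1, a thioesterase, read 8.81, 10.13, 9.95, 9.80 and 10.27 at 1 h and 5.12, 7.10, 5.78, 6.30 and 7.93 at 2 d and fell by 3.35 ± 0.52 (adjusted p = 4.95e-05). Its mean at 16 d was 6.70, and the 1 h minus 16 d difference was 3.09 ± 0.52 (adjusted p = 0.00133). Ehhadh, a peroxisomal oxidation enzyme, fell by 2.01 ± 0.44 (adjusted p = 0.0019) and Slc22a5, the carnitine importer, fell by 1.49 ± 0.28 (adjusted p = 0.000444). Their 1 h minus 16 d differences were 1.80 ± 0.44 (adjusted p = 0.033) and 1.69 ± 0.28 (adjusted p = 0.00118). Angptl4, a fasting-induced inhibitor of lipoprotein lipase, fell by 1.92 ± 0.30 (adjusted p = 4.06e-05), and Plin5, which coats lipid droplets, fell by 1.82 ± 0.30 (adjusted p = 7.85e-05), with 1 h minus 16 d differences of 1.81 ± 0.30 (adjusted p = 0.000953) and 1.76 ± 0.30 (adjusted p = 0.00126). Angptl4 differed by -0.88 on the brightest probe set of the table. Over all genes, 170 were higher at 1 h than at 16 d (1.1%) and 172 lower (1.11%), whereas 1663 were higher at 2 d than at 16 d (10.8%) and 1172 lower (7.59%). The members that rose were Cd36, Abcd2 and the fatty acid activating enzyme gene Acsl4 (1.10).

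Fasting and glycogen genes fell in part. Of 31 measured members 9 fell and 2 rose, and 15 fell in a fit of the 10 arrays alone. Ppp1r3c, which targets a phosphatase to glycogen, read 10.87, 10.47, 9.37, 10.37 and 10.58 at 1 h and 8.15, 7.63, 8.42, 8.54 and 7.69 at 2 d and fell by 2.25 ± 0.37 (adjusted p = 0.000102). Slc25a47, a mitochondrial carrier specific to liver, fell by 1.42 ± 0.15 (adjusted p = 2.37e-07). Gyg, the primer of glycogen, rose by 1.42 ± 0.30 (adjusted p = 0.00142), and Pck2, the mitochondrial relative of Pck1, rose by 0.90 ± 0.16 (adjusted p = 0.000259), or by 0.57 with averaged probe sets. Cholesterol synthesis rose in 10 of 25 measured members, or 6 without 2 d replicate 1, and 2 fell, Tm7sf2 (-1.03), a sterol reductase, and Scap (-0.49, call lost in 1 of 23 other settings, at -0.17), the sterol sensor. Hmgcs1, an early step of the pathway, read 9.94, 10.24, 8.81, 10.23 and 9.29 at 1 h and 11.88, 10.72, 11.11, 11.14 and 11.06 at 2 d and rose by 1.48 ± 0.34 (adjusted p = 0.00311). Cyp51 rose by 1.65 ± 0.38 (adjusted p = 0.00257) and Mvd rose by 1.29 ± 0.31 (adjusted p = 0.00402). All 3 were higher again at 16 d, with means of 12.00, 10.14 and 6.95, and their 1 h minus 16 d differences were -2.30 ± 0.34 (adjusted p = 0.000372), -2.45 ± 0.38 (adjusted p = 0.000493) and -2.05 ± 0.31 (adjusted p = 0.000405). Pgd and Tkt are enzymes of the pentose phosphate pathway, which supplies nucleotides and reducing power. Pgd rose by 2.04 ± 0.20 (adjusted p = 8.77e-08) and Tkt rose by 1.01 ± 0.15 (adjusted p = 2.04e-05), or by 0.64 with averaged probe sets. On the brightest probe set of the table Mvd differed by 0.84.

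Antioxidant genes were divided. Of 41 measured targets of NRF2, the factor that answers oxidative stress, 13 rose and 7 fell, and without 1 h replicate 4, 2 d replicate 2 or 2 d replicate 3 the count that fell was 3, 4 or 4. Cbr3, a carbonyl reductase, rose by 1.72 ± 0.23 (adjusted p = 5.96e-06), and Akr1b8 and Abcc4 rose as given above. Hmox1, which breaks down heme, differed by 0.83 ± 0.45 (adjusted p = 0.174), after means of 10.79 at 12 h and 10.09 at 1 d. Sod1, the cytosolic superoxide dismutase, fell by 0.36 ± 0.07 (adjusted p = 0.000464). Mt2, a metallothionein, differed by 0.19 ± 0.74 (adjusted p = 0.869), with means of 12.10 at 1 h, 12.29 at 2 d and 9.56 at 16 d. Respiratory genes were called in 6 of 66 lower and 2 of 66 higher, with a median of -0.11. Without 1 h replicate 3 the count that fell was 12, with quantile normalization 14 and with array weights 16. The members that rose were Mdh2 (0.33 ± 0.08) and Suclg2 (0.28, call lost in 12 of 23 other settings, at -0.01 to 0.29), of the citric acid cycle. With ribosomal centring Mdh2 was not called (0.04). Ndufs7, of respiratory complex I, fell by 0.59 ± 0.15 (adjusted p = 0.00602).

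Immediate early genes answer a stimulus within the hour. Of 52 measured members 6 rose and 4 fell, where the shares over all genes were 12.8% and 12.3%, and the fit of the 10 arrays alone called 12 and 8. Jun, a subunit of the AP-1 factor, read 9.52, 9.45, 9.38, 9.71 and 9.20 at 1 h and 7.51, 6.89, 7.22, 7.30 and 7.69 at 2 d and fell by 2.13 ± 0.36 (adjusted p = 0.000109). Dusp1, the phosphatase that ends kinase signals, fell by 1.89 ± 0.41 (adjusted p = 0.00182). Both were also higher at 1 h than at 16 d, by 2.57 ± 0.36 (adjusted p = 0.000166) and 2.24 ± 0.41 (adjusted p = 0.00301). Zfp36 (-1.34), which destabilises cytokine mRNA, and the kinase gene Pim3 (-1.57) also fell. Id1 and Myc were among those that rose. Atf3, a stress-induced transcription factor, differed by 0.42 ± 0.64 (adjusted p = 0.657), after a peak mean of 11.50 at 12 h.

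Clock genes fell in 7 of 27 measured members and rose in 1. Nr1d1, a repressor in the core of the clock, read 6.45, 6.65, 5.86, 6.75 and 6.51 at 1 h and 5.40, 4.98, 5.16, 5.36 and 5.76 at 2 d and fell by 1.11 ± 0.32 (adjusted p = 0.0137). Rgs16, a rhythmic regulator of G protein signals, fell by 1.53 ± 0.31 (adjusted p = 0.000796) and Tef, an output factor, fell by 0.68 ± 0.19 (adjusted p = 0.0136), or by 0.45 with averaged probe sets. Dbp, another output factor, differed by -1.07 ± 0.63 (adjusted p = 0.214), and its 2 d arrays ranged from 6.15 to 9.37 around a 1 h range of 8.16 to 9.30. Arntl and Per2, members of the core loop, 0.02 and -0.20 in difference, were not called (adjusted p = 0.955 and 0.248). Tspan4, a tetraspanin, was the member that rose (1.40 ± 0.15). The E-box CACGTG was in 4 of the 11 promoters of the 8 called members (36.4%), in 4 of 26 of those not called (15.4%) and in 7.15% of all promoters. The D-box TTATGTAA was in none of the 11, in 1 of the 26 (3.85%) and in 0.938% of all. These genes follow the time of day, which the sources used here do not give. Glucocorticoid targets counted 9 of 27 lower and 3 of 27 higher, Lcn2, the kinase gene Sgk3 (0.63 ± 0.14) and the cycle inhibitor gene Cdkn1a (1.09 ± 0.38, call lost in 10 of 23 other settings, at 0.80 to 1.12, among them those leaving out any of 7 arrays), and Klf9, a transcription factor among them, fell by 0.69 ± 0.18 (adjusted p = 0.00846).

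Among long noncoding RNAs and hosts of small RNAs 8 of 30 fell and 1 rose. Dleu2, the host of a microRNA pair, read 7.72, 7.73, 6.87, 7.75 and 7.88 at 1 h and 5.95, 5.13, 5.30, 5.79 and 6.19 at 2 d and fell by 1.92 ± 0.21 (adjusted p = 5.16e-07). Snhg12 and Zfas1, hosts of small nucleolar RNAs, fell, with differences of -1.48 ± 0.29 and -1.15 ± 0.25, and so did Mir22hg, the host of a microRNA, with -1.18 ± 0.26 (highest adjusted p 0.00234). Neat1, the RNA scaffold of paraspeckles, rose by 1.49 ± 0.34 (adjusted p = 0.00266), or by 0.57 with averaged probe sets, and its means at 12 h and 1 d were 9.64 and 9.39. Among the 8616 probe sets for which the annotation used lists no gene, 1285 (14.9%) were lower and 189 (2.19%) higher, with a median of -0.17, against 12.4% lower and 9.17% higher over all probe sets. Their targets are not named here.

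The counts of 32 of the 73 lists are set side by side in the plot of list counts. The lists overlap in some genes, and members of a list are not independent of each other.

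**Figure D4:**
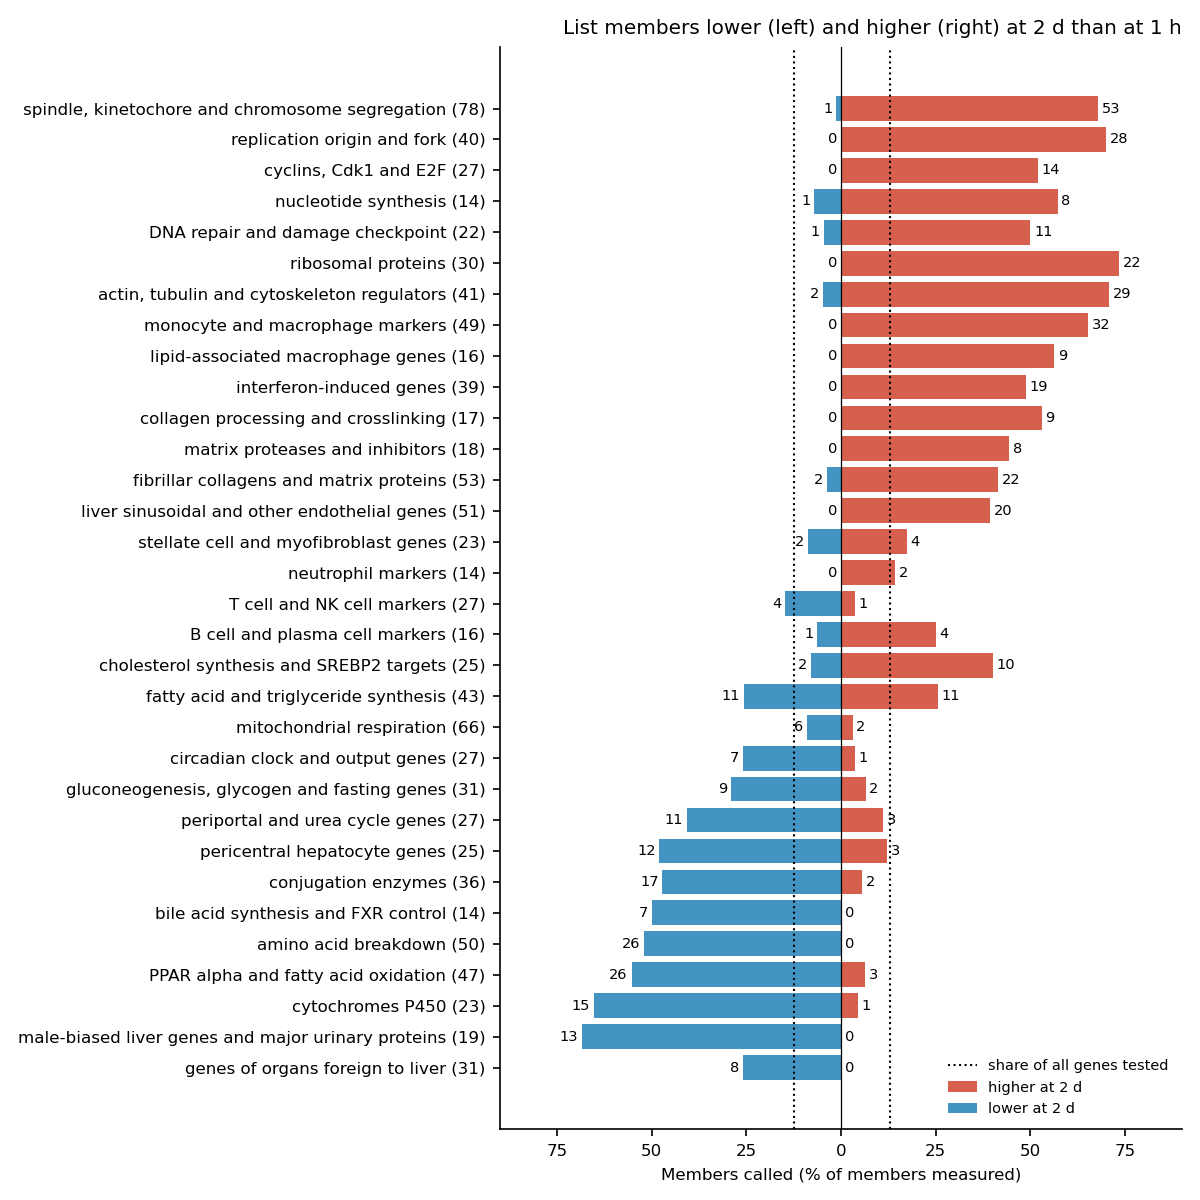
Percent of the measured members of 32 gene lists called lower (bars to the left) and higher (bars to the right) at 2 d than at 1 h, with counts at the bar ends and the number measured in parentheses. Dotted lines mark the shares over all genes, 12.3% lower and 12.8% higher. Spindle genes reach 53 of 78 higher and male-biased genes 13 of 19 lower.

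The other times on the complete arrays place the 2 d values. The median of the mitotic list relative to 1 h was -0.17 at 12 h, -0.13 at 1 d, 1.12 at 2 d and 0.07 at 16 d, so of these times 2 d alone had a median over 0.1. The macrophage list had medians of 0.54, 0.71, 1.09 and 0.06 at those times, and the cytoskeleton list 0.40, 0.73, 0.84 and 0.06. Both medians were thus already above 0 at 12 h. The medians of the P450 list were -0.59, -1.10, -0.73 and -0.02, and those of the male-biased list -0.64, -1.11, -0.80 and 0.22, both lowest at 1 d. The PPAR alpha list had medians of -0.44, -0.50, -0.50 and -0.42, and the cholesterol list was highest at 16 d, with 0.02, 0.64, 0.50 and 1.47. Over all genes the medians were -0.08, -0.07, -0.09 and -0.01. The 4 differences of a list share the 1 h arrays, so they are given side by side as values.

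**Figure D5:**
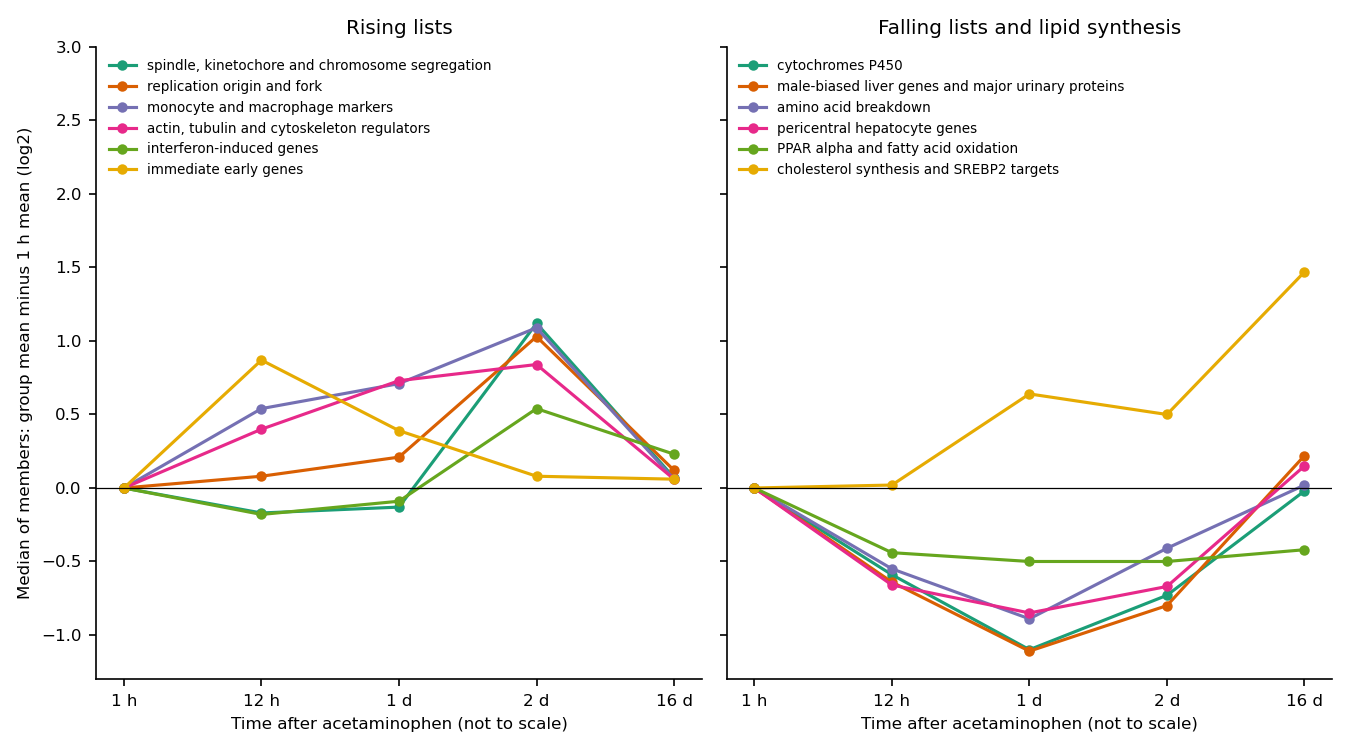
Median over list members of the group mean minus the 1 h mean (log2, vertical axis) at 1 h, 12 h, 1 d, 2 d and 16 d after acetaminophen (horizontal axis, not to scale), for 6 lists in each panel. The mitotic list stands at 1.12 at 2 d and within 0.17 of 0 at the other times, while the PPAR alpha list stays between -0.42 and -0.50 from 12 h on.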

How the data were processed

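RNA from whole mouse liver was measured on 49 Affymetrix arrays, of which 25 (1 h, 12 h, 1 d, 2 d and 16 d) are complete over 45101 probe sets and the rest hold the first part of the table. The authors deposited log2 values made with RMA in oligo 1.52.0, per the submitters' processing notes; the sources used here do not say if the arrays went through RMA together. The signal is the array's brightness, so its precision is limited by the number of arrays and, for dim probe sets, by background (10th percentile 2.83, median 4.55).

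Probe sets were fitted with limma 3.58.1 in R 4.3.3 over the 25 complete arrays with 1 mean per group and no block (residual degrees of freedom 20, prior 3.95), and p-values were adjusted over 45037 probe sets. Genes took the annotation's single symbol, 27575 probe sets in all, of which 27377 were updated by gene number to RefSeq GRCm38.p6; 709 with several symbols and 8616 not listed were left unnamed. Named were, among called genes whose groups did not overlap, the 15 largest rises and 15 largest falls, the 4 largest of each of 73 lists in its main direction and 2 in the other, and a panel of 65 genes (48 measured) whether called or not. The members and lists were chosen with earlier results of these data known. The fit was tested on simulated data. Alternatives were another set of arrays, the replicate number as a block, a trended prior, array weights, 3 other scalings, filters on dim or cross-hybridising probe sets, other rules for 1 value per gene, a test against a 2-fold change, and leaving out each array.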

Additional observations from a re-analysis of the deposited data

Results flagged for a closer look

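Groups of 5 values of the named genes other than Ccr2 and Afp were searched for arrays standing apart. In 35 of 542 groups the highest or lowest array stood off from the nearest other by more than 0.71 of the group's range. Chance alone gives such a gap in about 1 in 20 groups. Replicate 3 at 1 h was the array in 15 of them and replicate 2 at 2 d in 8. At 1 h, replicate 1 was the highest array, with 11.32 for Otc (11.06 to 11.13 on the others). At 1 h, replicate 2 was the lowest array, with 2.49 for Rad54b (2.57 to 2.58 on the others) and 4.52 for Sprr1a (5.09 to 5.13 on the others). At 1 h, replicate 3 was the lowest array, with 3.51 for Abcd2 (4.87 to 5.03 on the others), 3.82 for Dck (5.42 to 5.74 on the others), 6.77 for Ddx39a (7.54 to 7.81 on the others) and 6.87 for Dleu2 (7.72 to 7.88 on the others). It was also the lowest with 5.46 for Hat1 (6.83 to 7.14 on the others), 7.56 for Iars (8.07 to 8.22 on the others), 8.38 for Itgav (8.64 to 8.72 on the others) and 3.94 for Pdgfrb (5.11 to 5.57 on the others). It was also the lowest with 7.27 for Pgd (8.16 to 8.33 on the others), 6.45 for Sgk3 (6.62 to 6.68 on the others), 6.70 for Snrpf (7.53 to 7.71 on the others) and 8.05 for Tpmt (8.48 to 8.64 on the others). At 1 h, replicate 3 was the highest array, with 5.95 for Igf2 (5.21 to 5.37 on the others), 5.49 for Per2 (4.91 to 5.06 on the others) and 8.48 for Zap70 (7.93 to 8.05 on the others). At 1 h, replicate 5 was the highest array, with 4.42 for Birc5 (3.63 to 3.79 on the others), 6.75 for Cdk1 (5.98 to 6.17 on the others), 3.66 for Eda2r (3.23 to 3.32 on the others) and 7.51 for Ifitm1 (6.62 to 6.87 on the others). At 2 d, replicate 2 was the lowest array, with 8.40 for Ccnd1 (9.50 to 9.89 on the others), 7.56 for Hat1 (8.56 to 8.91 on the others), 9.76 for Lect2 (10.66 to 10.89 on the others) and 8.50 for Nop58 (9.05 to 9.26 on the others). It was also the lowest with 6.69 for Rrm1 (8.02 to 8.39 on the others), 6.85 for Smc2 (8.45 to 8.96 on the others) and 9.27 for Spcs3 (9.88 to 10.13 on the others). At 2 d, replicate 2 was the highest array, with 12.51 for H2-K1 (12.31 to 12.35 on the others). At 2 d, replicate 3 was the lowest array, with 6.47 for Igf2bp3 (6.71 to 6.78 on the others). At 2 d, replicate 4 was the lowest array, with 12.01 for Pck1 (12.31 to 12.36 on the others). At 2 d, replicate 5 was the lowest array, with 7.52 for Afmid (8.47 to 8.70 on the others). At 2 d, replicate 5 was the highest array, with 3.05 for Angptl4 (2.33 to 2.46 on the others) and 9.94 for Klf6 (8.83 to 9.08 on the others). The low values of 2 d replicate 2 concern genes of the cell cycle and its supply (Ccnd1, Hat1, Rrm1, Smc2) as well as Lect2, Nop58 and Spcs3.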

How the results depend on the processing

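The 3881 calls were 2878 to 3786 when 1 array was left out. Of these, 1551 to 1998 were higher and 1327 to 1816 lower, and 567 to 738 were at least 2-fold higher and 138 to 181 at least 2-fold lower. Centring on ribosomal protein genes called 9996 genes, 1195 higher (393 at least 2-fold) and 8801 lower (384). Centring on array medians called 1180 lower. A test against a 2-fold change called 172 genes, 155 higher and 17 lower, all of them at least 2-fold. The other settings gave counts within 1.5 times of the main ones, from 3346 with arrays centred on their medians to 5162 with array weights. Array weights gave 2368 higher and 2794 lower, and 3996 were called after quantile normalization. With the replicate block 4179 genes were called, 2042 higher and 2137 lower. The deviations of same-numbered arrays of the groups correlated at -0.056, -0.275, 0.416, 0.075 and 0.384, so the numbers were not taken to pair the arrays.

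Of 6475 values of named genes under these settings, Ccr2 and Afp aside, 5996 were counted as keeping direction and side of the threshold. That count includes any change of sign in a gene not called in the main fit. Another 17 newly passed the threshold, 452 no longer passed it, and 10, of genes called in the main fit, changed sign. Those that changed sign were 0.07 for Ackr4, 0.01 for Atp6v0a1, 0.93 for Ezr and 0.52 for Sox4 with averaged probe sets, 2.29 for Ezr without cross-hybridising probe sets, -0.01 for Suclg2 with ribosomal centring, and 0.27 for Atp6v0a1, 0.04 for Fbln5, 0.17 for Mbnl1 and 0.86 for Tcf21 on the brightest probe set of the table. The cause was not tested.

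The 1 h arrays carry the drug and follow a fast, no untreated array of the table used here has values for these probe sets, and feeding state and time since the dose cannot be told apart. Dim probe sets, as for Tyms or the markers of rare cells, lie near the background of the array, so a missed threshold there does not show that values did not differ.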
